A study of Rattus norvegicus with 6 samples.

Results

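In cell fractions of the rat renal inner medulla, RNA signals were compared for 10 genes of the Notch pathway. They were the receptors Notch1, Notch2, Notch3 and Notch4, the ligands Jag1, Jag2, Dll1 and Dll4, and the target genes Hes1 and Hey1. Every probe set whose only gene symbol in the platform annotation was one of these names was taken, which gave 14 of the 31042 probe sets tested: 7 for receptors, 5 for ligands and 2 for targets. All 10 genes had at least 1 probe set, and no member was removed by a filter on low values.

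RNA came from male Sprague-Dawley rats that had received 1 mg of furosemide, a loop diuretic, into the peritoneum 30 min before death, so no group was untreated. The excised inner medulla was digested with collagenase B and hyaluronidase for 75 min at 37 °C. A slow spin pelleted mainly collecting duct cells of the inner medulla (IMCD), and the cells spun out of its supernatant formed the nonIMCD fraction. Each fraction was hybridised to 3 Affymetrix Rat 230 2.0 arrays. IMCD replicate 1 is labelled as from rats of 6 weeks and the other 5 arrays as from rats of 10 weeks. The study used 7 rats, and the sources used here do not say how these were divided over the arrays. The fractions are enriched and not pure, and they were kept in digestion before RNA was taken.

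Notch receptors sit in the membrane of 1 cell and are activated by Jagged or Delta-like ligands on a neighbouring cell. ADAM proteases and γ-secretase then free the receptor's intracellular domain, which joins the DNA-binding protein Rbpj and switches on genes of the Hes and Hey families of transcriptional repressors. In the collecting duct the pathway is known for favouring the principal cell over the intercalated cell. In vessels Dll4, Notch1 and Notch4 are known from endothelium and Notch3 from pericytes and smooth muscle.

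The ligands Jag1 and Dll4 and the receptors Notch1 and Notch4 were dimmer in IMCD than in nonIMCD, while Notch2 was brighter in IMCD. In limma's test 7 of the 14 probe sets were lower in IMCD, 1 was higher and 6 did not pass at an adjusted p under 0.05. Over all probe sets 22.0% passed, 13.4% as lower and 8.58% as higher. The median difference of the 14 probe sets was -0.74 on the log2 scale, against -0.10 over all probe sets. By gene, 4 had a lower probe set, 1 had a higher one, and Notch3, Jag2, Dll1, Hes1 and Hey1 had none that passed. Taking only the brightest probe set of each gene gave the same counts. Over 14217 genes taken in that way 15.7% passed as lower and 10.0% as higher. The calls of Jag1, Dll4 and Notch1 held in all 13 alternative runs, while those of Notch2 and Notch4 were each lost in several. Intensities of the fractions did not overlap for 10 of the 14 probe sets, 9 lower and 1 higher in IMCD, against 42.2% of all probe sets (24.9% lower, 17.3% higher). In these bulk samples fewer cells of a type and less RNA per cell cannot be told apart.

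**Figure D1:**
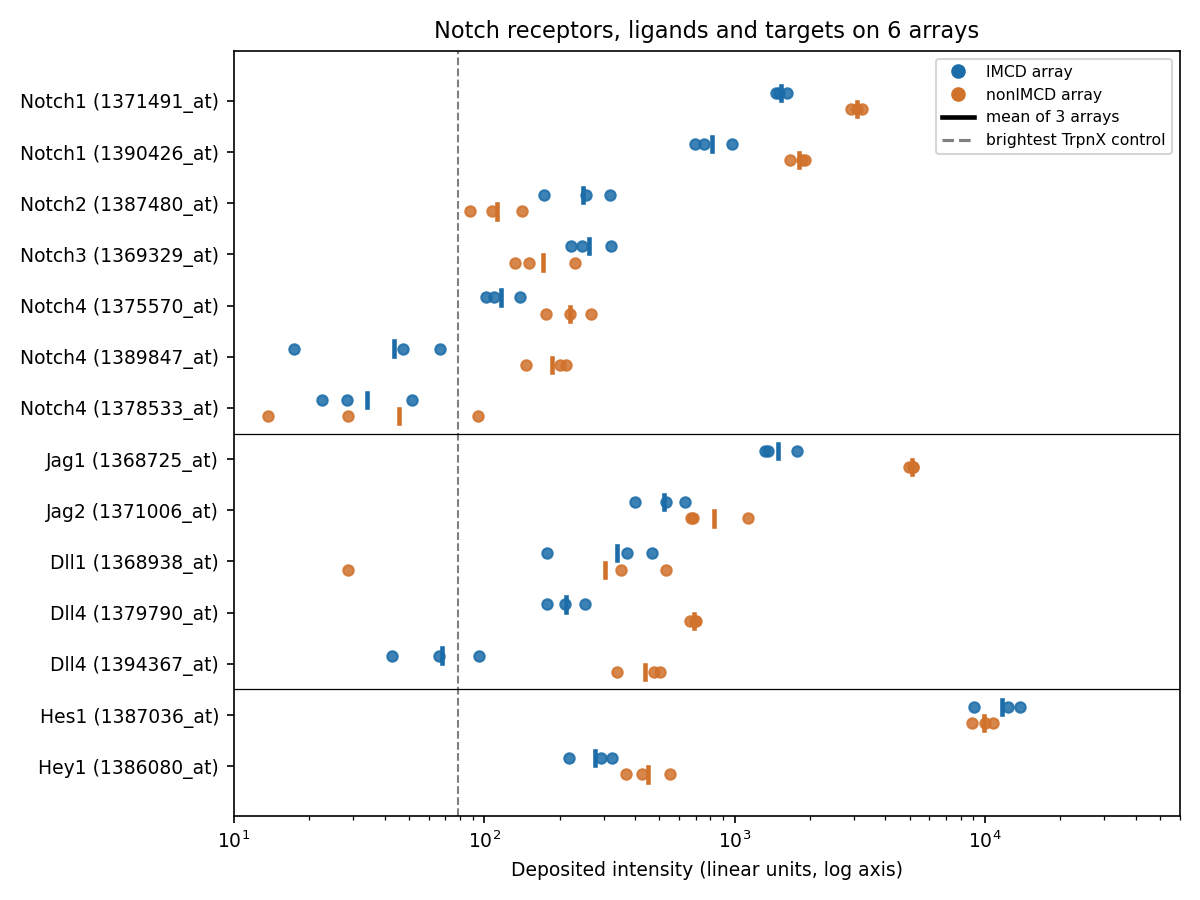
Deposited intensity (linear units on a log axis) of each of the 14 probe sets, with 1 point per array, 3 IMCD and 3 nonIMCD arrays, and a bar at each fraction's mean. The Jag1, Dll4 and Notch1 points of the fractions lie apart, those of Hes1, Notch3 and Dll1 overlap, and the dashed line is the brightest reading of the TrpnX controls, 78.4.

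Marker genes of other cell types moved with the fractions. Collecting duct principal cell markers were higher in IMCD for 9 of 10 genes, with a median difference of 1.77. Among them were the transcription factor Elf5 (2.56) and the sodium channel subunit Scnn1g (2.48). The summed intensity of the 10, in which the brightest genes weigh most, was 228405 to 245211 on IMCD arrays and 109500 to 142679 on nonIMCD arrays. Aqp2, the defining water channel of the duct, was bright in both fractions and did not pass (0.29). For intercalated cells 4 of 8 markers were higher, including the proton pump subunit Atp6v0a4 (1.20). Atp6v1b1 (1.67), Atp6v1g3 (0.97), Slc4a1 (0.91) and Slc26a4 (-0.66, dimmer in IMCD) did not pass. The sums of the 8 markers were 35459 to 42322 in IMCD and 18479 to 25370 in nonIMCD. All 13 measured endothelial markers were lower in IMCD, with von Willebrand factor (Vwf, -4.16) and the urea transporter Slc14a1 (-4.01) leading, and their sums were 17105 to 21404 in IMCD and 86094 to 91071 in nonIMCD. Of 9 pericyte and smooth muscle markers 5 were lower, led by Tagln (-2.51) and Mcam (-2.04), and the sums were 2341 to 3169 and 4331 to 5494. The other 4, Cspg4 (-0.22), Myh11 (0.11), Acta2 (0.33) and Cnn1 (0.65), did not pass. Leukocyte markers were lower for 10 of 11 genes, led by C1qb (-7.06) and Aif1 (-6.79), with sums of 1200 to 1602 and 69346 to 76331. Of 3 thin limb markers all were lower, led by Bst1 (-4.39) and the water channel Aqp1 (-3.48), with sums of 4571 to 7194 and 59569 to 82221. By the brightest probe set of each marker, Aif1, Itgam and Epha7 lay under the brightest TrpnX reading on all 3 IMCD arrays, and no endothelial marker did. RNA quality moved with the fractions too: the mean log2 ratio of 3' to 5' control signal over Actb, Gapdh and hexokinase was 0.69 ± 0.03 on IMCD and 1.35 ± 0.14 on nonIMCD arrays (SD, n = 3). The part of these shifts in the Notch differences was not tested.

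**Figure D2:**
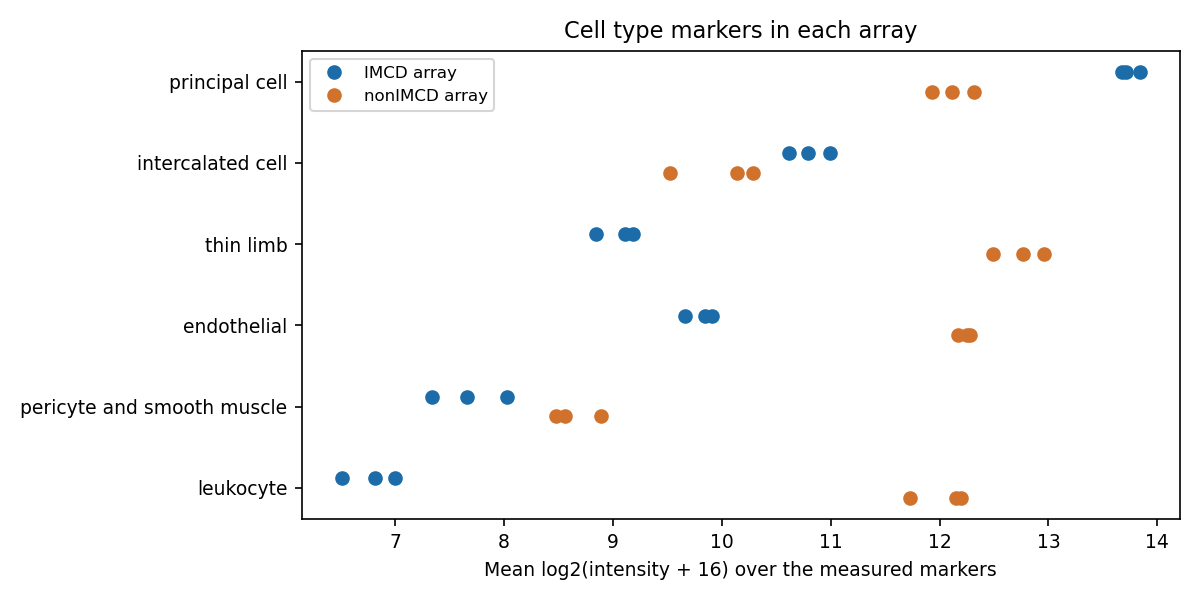
Mean log2(intensity + 16) over the measured markers of each cell type, with 1 point per array. The 3 IMCD arrays lie above the 3 nonIMCD arrays for principal and intercalated cell markers and below them for the other 4 lists.

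Among the receptors, Notch1, which acts in epithelia and endothelium, was lower in IMCD by both of its probe sets. The brighter one (1371491_at) read 1626, 1465 and 1501 on IMCD replicates 1, 2 and 3 and 3220, 2915 and 3079 on the nonIMCD replicates. All IMCD arrays were thus dimmer than any nonIMCD array, and the difference was -1.00 ± 0.12 on the log2 scale (SE, adjusted p = 0.00338), or 2.00 times as bright in nonIMCD. The second Notch1 probe set (1390426_at) read 973, 696 and 757 in IMCD and 1914, 1855 and 1670 in nonIMCD. It differed by -1.16 ± 0.17 (SE, adjusted p = 0.00631), again with no overlap. The direction and the call of both Notch1 probe sets held in all 13 alternatives.

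Notch4, a receptor known mainly from endothelial cells, had 3 probe sets of low brightness. The first (1375570_at) read 109, 102 and 139 in IMCD and 221, 176 and 266 in nonIMCD, with no overlap, and differed by -0.83 ± 0.20 (SE, adjusted p = 0.0334). The second (1389847_at) read 66.7, 17.4 and 47.2 in IMCD and 147, 201 and 213 in nonIMCD, a difference of -1.85 ± 0.36 (SE, adjusted p = 0.0179). Its IMCD readings all lay under the brightest TrpnX control, so the size of that difference depends on the pseudocount. The third (1378533_at) read 51.4, 28.2 and 22.4 in IMCD and 94.8, 13.7 and 28.7 in nonIMCD and did not pass (-0.12, adjusted p = 0.895), with 5 of 6 readings under that control level. Leaving out 1 array ended the call of the first for IMCD replicate 1 (-0.79, adjusted p = 0.104) and 2 (-0.75, 0.0995) and for nonIMCD replicate 1 (-0.82, 0.0948) and 3 (-0.69, 0.0769). It was also lost with median centring of the arrays (-0.54, adjusted p = 0.0967), after quantile normalization (-0.54, 0.104) and with an intensity trend (-0.83, 0.0734). That of the second was lost without nonIMCD replicate 2 (-1.79, adjusted p = 0.0625) or nonIMCD replicate 3 (-1.75, 0.0565).

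Notch2, the receptor that stood out in the other direction, is known from developing and adult kidney epithelium. Its single probe set (1387480_at) read 173, 318 and 255 in IMCD and 87.4, 141 and 107 in nonIMCD. The lowest IMCD array was above the highest nonIMCD array, and the difference was 1.03 ± 0.27 (SE, adjusted p = 0.0427), 2.05 times as bright in IMCD. The signal was dim, at the percentile 39.6 of all probe sets by mean log2 value. The call lay close to the threshold. Leaving out 1 array ended it for IMCD replicate 2 (0.85, adjusted p = 0.106) and 3 (1.00, 0.113) and for nonIMCD replicate 1 (0.89, 0.12), 2 (1.19, 0.0583) and 3 (1.02, 0.103). It was also lost with a pseudocount of 1 (1.13, adjusted p = 0.0518).

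Notch3, the receptor of mural cells around vessels, read 222, 320 and 245 in IMCD and 151, 231 and 133 in nonIMCD (1369329_at). The fractions overlapped at nonIMCD replicate 2, and the difference of 0.59 ± 0.24 did not pass (SE, adjusted p = 0.15). It passed with each array centred on its median (0.88, adjusted p = 0.0481). Pericyte and smooth muscle markers had a median difference of -1.30 beside it and did not move as one, with differences from -2.51 to 0.65.

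**Figure D3:**
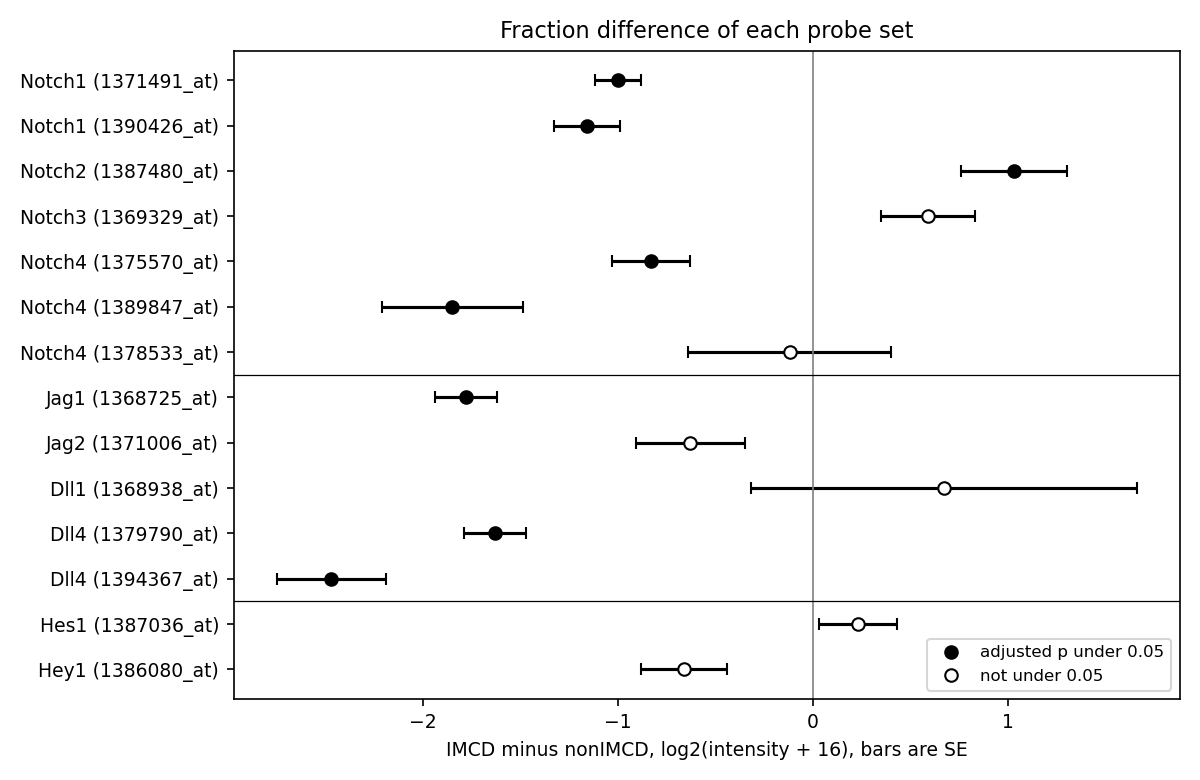
Difference IMCD minus nonIMCD in log2(intensity + 16) for each of the 14 probe sets, with SE bars from limma, filled where the adjusted p was under 0.05. Of the filled points 7 lie left of 0, from Notch1, Notch4, Jag1 and Dll4, and 1 lies right of it, from Notch2.

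The promoter windows of the receptors that passed, from 250 bases before to 50 bases after the start site, are shown because Notch4 and Notch1 were lower together while Notch2 differed the other way. They come from RefSeq, build GRCr8: Notch1 at chr3:29721564-29721863 on the minus strand, Notch4 at chr20:4189023-4189322 on the minus strand and Notch2 at chr2:188299086-188299385 on the plus strand. Capitals mark the core of the Rbpj recognition sequence, TGGGAA, searched on both strands.
Notch1: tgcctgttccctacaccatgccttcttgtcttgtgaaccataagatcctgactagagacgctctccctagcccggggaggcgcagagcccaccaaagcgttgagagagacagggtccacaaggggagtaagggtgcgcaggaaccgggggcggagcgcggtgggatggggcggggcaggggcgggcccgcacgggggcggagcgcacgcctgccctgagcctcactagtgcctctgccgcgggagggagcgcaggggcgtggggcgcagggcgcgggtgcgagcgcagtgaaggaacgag
Notch4: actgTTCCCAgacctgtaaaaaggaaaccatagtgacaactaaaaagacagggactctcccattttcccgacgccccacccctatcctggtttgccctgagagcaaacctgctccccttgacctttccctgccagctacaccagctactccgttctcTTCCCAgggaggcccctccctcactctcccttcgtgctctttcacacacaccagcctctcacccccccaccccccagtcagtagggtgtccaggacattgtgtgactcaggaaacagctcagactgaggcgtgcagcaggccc
Notch2: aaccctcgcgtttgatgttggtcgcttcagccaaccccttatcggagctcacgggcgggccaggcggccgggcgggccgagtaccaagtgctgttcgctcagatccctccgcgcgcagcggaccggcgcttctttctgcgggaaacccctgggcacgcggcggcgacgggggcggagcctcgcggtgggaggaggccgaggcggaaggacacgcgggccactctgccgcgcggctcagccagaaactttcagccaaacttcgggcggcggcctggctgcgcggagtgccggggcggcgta
The Notch4 window held 2 matches, which began 246 and 93 bases before the start, both on the opposite strand. No match was found in the Notch1 or Notch2 window. Of 33469 promoter windows of this length 25.7% held at least 1 match and 3.85% held 2 or more. RefSeq windows were found for 8 of the 10 genes, and 4 of these 8 held the core: Notch3, Notch4, Dll1 and Hes1.

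Of the ligands, Jag1, which signals between neighbouring epithelial cells and in vessels, had the smallest p of the 14 probe sets. Its probe set (1368725_at) read 1365, 1322 and 1778 in IMCD and 5182, 4966 and 5145 in nonIMCD. The nonIMCD arrays lay within a narrow range far above all IMCD arrays. The difference was -1.78 ± 0.16 (SE, adjusted p = 0.00129), 3.43 times as bright in nonIMCD.

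The window around the Jag1 start site, chr3:144894834-144895133 on the minus strand of GRCr8, is given since this ligand had that smallest p, and it held no TGGGAA on either strand.
Jag1: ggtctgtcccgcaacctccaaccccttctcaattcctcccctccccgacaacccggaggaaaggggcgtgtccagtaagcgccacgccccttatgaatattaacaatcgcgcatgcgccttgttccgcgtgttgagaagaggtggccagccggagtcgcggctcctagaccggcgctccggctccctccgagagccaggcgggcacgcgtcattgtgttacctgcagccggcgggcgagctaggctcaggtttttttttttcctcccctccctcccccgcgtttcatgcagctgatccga

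Dll4, the Delta-like ligand known from arterial and capillary endothelium, was lower in IMCD by both of its probe sets. The brighter (1379790_at) read 252, 178 and 210 in IMCD and 666, 698 and 702 in nonIMCD. Its nonIMCD readings were all more than the highest IMCD reading, and it differed by -1.63 ± 0.16 (SE, adjusted p = 0.0017), 3.10 times as bright in nonIMCD. The dimmer (1394367_at) read 95.7, 65.8 and 42.7 in IMCD and 477, 503 and 339 in nonIMCD and differed by -2.47 ± 0.28 (SE, adjusted p = 0.00292). Of its IMCD readings 2 lay under the brightest TrpnX control, and under the alternatives the difference ran from -2.73 to -1.94. The calls of Jag1 and of both Dll4 probe sets held in all 13 alternatives. Endothelial markers had a median difference of -2.00 beside these values.

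Jag2, the second Jagged ligand, read 401, 635 and 530 in IMCD and 671, 684 and 1131 in nonIMCD (1371006_at). The fractions did not overlap, but nonIMCD replicate 3 stood above the others and the difference of -0.63 ± 0.28 did not pass (SE, adjusted p = 0.166). Dll1, another Delta-like ligand, read 371, 469 and 178 in IMCD and 28.7, 530 and 352 in nonIMCD (1368938_at). Its spread between arrays of 1 fraction was wider than the gap between fractions (0.67 ± 0.99, SE, adjusted p = 0.678). The Dll1 reading of nonIMCD replicate 1 lay at control level, and without that array the difference was -0.43 (adjusted p = 0.572).

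Neither target among the members passed. Hes1, a repressor induced by Notch and by several other signals, was bright on every array: 12333, 13856 and 9056 in IMCD and 10808, 10028 and 8872 in nonIMCD (1387036_at). The fractions overlapped, IMCD replicate 3 was the lowest of its fraction, and the difference was 0.23 ± 0.20 (SE, adjusted p = 0.469). Under the 13 alternatives it ran from 0.06 to 0.52 and did not pass in any. Hey1, a related repressor, read 324, 292 and 218 in IMCD and 370, 553 and 425 in nonIMCD (1386080_at). Every IMCD array was below every nonIMCD array, and the difference of -0.66 ± 0.22 did not pass (SE, adjusted p = 0.086). It passed once probe sets with a mean log2 value under 7 were left out, which reduces the number tested (-0.66, adjusted p = 0.0375).

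The window around the Hes1 start site, chr11:84212996-84213295 on the minus strand of GRCr8, is shown because it holds the Rbpj core as a close pair, with the capitals as above.
Hes1: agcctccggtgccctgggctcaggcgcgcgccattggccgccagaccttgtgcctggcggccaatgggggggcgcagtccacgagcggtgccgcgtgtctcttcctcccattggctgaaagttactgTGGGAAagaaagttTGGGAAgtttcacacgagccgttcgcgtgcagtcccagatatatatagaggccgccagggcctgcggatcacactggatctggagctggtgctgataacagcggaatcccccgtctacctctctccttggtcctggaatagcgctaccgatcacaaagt
The matches began 123 and 109 bases before the start, both on the gene's strand, with 8 bases between them. The N box CACNAG, to which Hes proteins bind, was found 4 times in this window on either strand, the nearest to the Rbpj cores beginning 97 bases before the start. It also occurred 4 times in the Notch1 window, where matches on opposite strands overlap, 2 times in the Notch4 window and 1 time in the Notch3 window. Of the 8 genes with a window 4 held the N box: Hes1, Notch1, Notch3 and Notch4. Of all windows 43.1% held at least 1 N box and 11.2% held 2 or more.

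Of 75 other genes of the pathway 63 were measured, each represented by its brightest probe set. Among them 6 were higher in IMCD, 8 were lower and 49 did not pass, and the median difference was -0.15. Over 14217 genes represented in the same way 25.8% passed, 10.0% as higher and 15.7% as lower, with a median of -0.09. The share of calls in this list was thus near that of all genes. The calls of 7 of the 14 genes held in every alternative run, namely those of Rbpj, Gxylt1, Lfng, Dtx4, Dtx3l, Tle2 and Heyl.

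**Figure D4:**
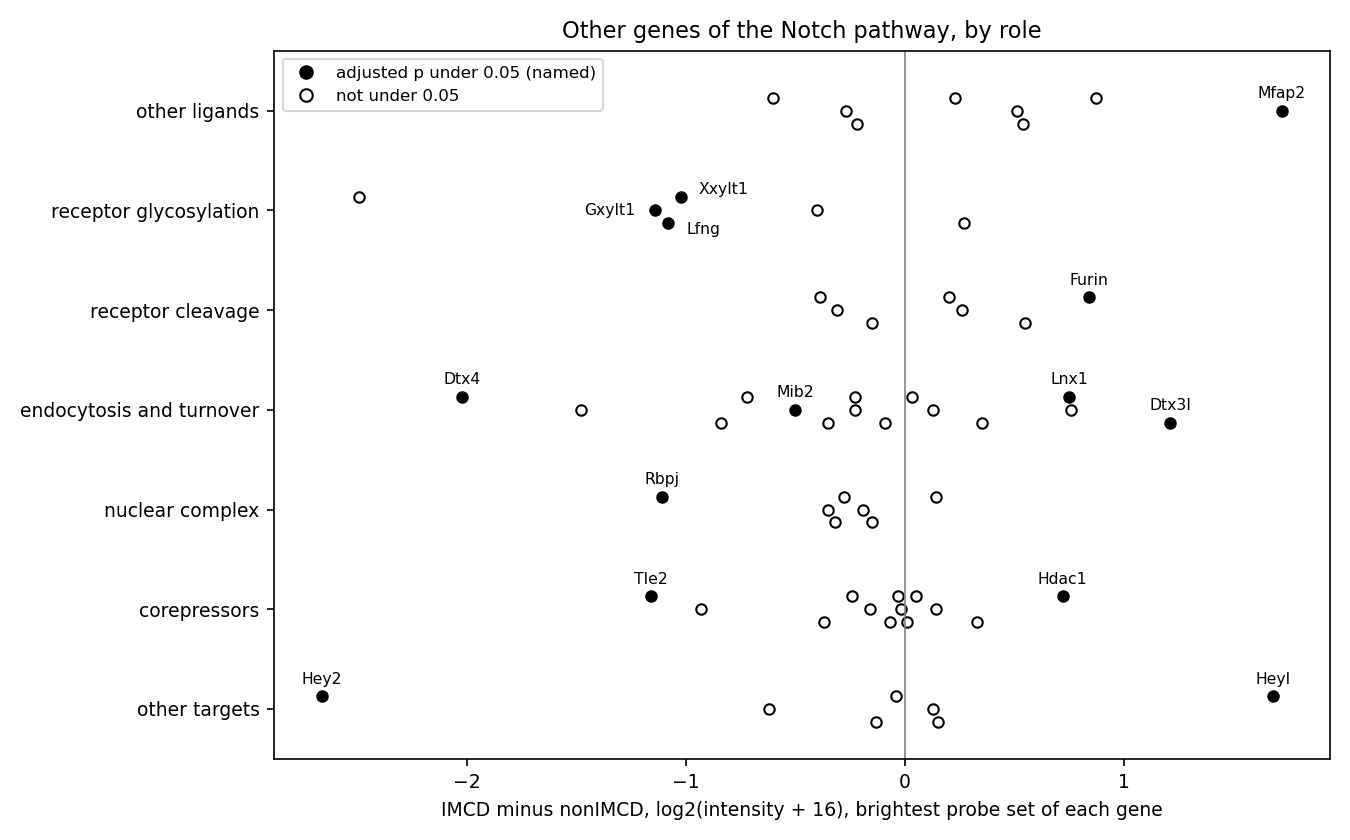
Difference IMCD minus nonIMCD in log2(intensity + 16) of the 63 other pathway genes, 1 point per gene, in rows by role. The 14 filled and named points passed, 6 right of 0 and 8 left of it, with Hey2 (-2.66) and Mfap2 (1.72) at the ends.

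In the nuclear complex 1 of 7 genes passed. Rbpj, the factor that brings the receptor's intracellular domain to DNA, read 2367, 2263 and 2461 in IMCD and 5855, 4900 and 4700 in nonIMCD. The fractions lay apart, and Rbpj differed by -1.11 ± 0.14 (SE, adjusted p = 0.00375). Its dimmer probe sets gave -1.04 (adjusted p = 0.0033) and -0.75 (adjusted p = 0.0144), so all 3 were lower. The coactivators Maml1 (-0.15), Maml2 (-0.19) and Ep300 (-0.32) did not pass by their brightest probe sets, while a dimmer Maml2 probe set gave -0.63 (adjusted p = 0.0205).

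Enzymes that put sugars on the receptor's extracellular domain were lower for 3 of 6 genes, with a median of -1.05. Gxylt1, which adds xylose, read 1076, 1334 and 1125 in IMCD and 2567, 2628 and 2645 in nonIMCD and differed by -1.14 ± 0.13 (SE, adjusted p = 0.00305), with a dimmer probe set at -0.40 (adjusted p = 0.275). Lfng, a Fringe enzyme that tunes the response to Delta-like and Jagged ligands, read 76.3, 102 and 100 against 180, 247 and 218 (-1.08 ± 0.18, SE, adjusted p = 0.0098). Xxylt1, which extends the xylose, differed by -1.02 ± 0.23 (adjusted p = 0.0294), and its adjusted p was up to 0.0899 under the alternatives, lost without IMCD replicate 1, 2 or 3 or nonIMCD replicate 1 or 2 and with median centring (-0.73, adjusted p = 0.076). A further Fringe, Mfng, read 16.1, 188 and 178 in IMCD and 596, 708 and 495 in nonIMCD and did not pass (-2.49 ± 0.74, SE, adjusted p = 0.0642). Its fractions did not overlap, and IMCD replicate 1 lay far under the other IMCD arrays.

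Of the proteases that cut the receptor 1 of 7 passed. Furin, which cleaves the receptor precursor, read 4736, 4440 and 4029 in IMCD and 2512, 3000 and 1927 in nonIMCD, higher in IMCD by 0.84 ± 0.20 (SE, adjusted p = 0.0302). Furin lost its call without any 1 of IMCD replicates 1, 2 and 3 or nonIMCD replicates 1 and 3, with adjusted p up to 0.0977. The γ-secretase genes Ncstn (0.20), Psen2 (0.26), Aph1a (-0.15) and Psenen (-0.39) and the sheddases Adam10 (0.55) and Adam17 (-0.31) did not pass by their brightest probe sets.

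Genes for endocytosis and turnover divided, with 2 of 15 higher and 2 lower. Dtx4, a Deltex ubiquitin ligase, read 63, 86.3 and 91.2 in IMCD and 481, 380 and 281 in nonIMCD (-2.02 ± 0.24, SE, adjusted p = 0.00308). The dimmer Dtx4 probe sets did not pass (-1.50 and -0.44, adjusted p = 0.116 and 0.604). Dtx3l, a relative also known from DNA damage and interferon responses, went the other way with 3139, 2817 and 2764 against 1232, 1345 and 1159 (1.21 ± 0.13, SE, adjusted p = 0.00227). The arrays of the fractions did not overlap for the brightest probe set of either gene. Lnx1, a ligase for the Notch inhibitor Numb, was higher by 0.75 ± 0.17 (adjusted p = 0.0297) and Mib2, a ligase for Notch ligands, lower by its log2 difference of -0.50 ± 0.12 (adjusted p = 0.0361). A dimmer Lnx1 probe set gave 0.37 (adjusted p = 0.232). Mib2 was lost with median centring (-0.21, adjusted p = 0.268), after quantile normalization (-0.34, 0.0956) and without any 1 of the 6 arrays, and Lnx1 was lost without IMCD replicate 1, 2 or 3 or nonIMCD replicate 1. Numb itself gave -0.09 and the ubiquitin ligase Nedd4 gave 0.03, and neither passed by its brightest probe set, while a dimmer Nedd4 probe set gave 0.70 (adjusted p = 0.0325).

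Among corepressors 1 of 13 was higher and 1 lower. Tle2, a Groucho-type corepressor that Hes proteins recruit, read 5438, 6367 and 5369 in IMCD and 11888, 15313 and 11407 in nonIMCD (-1.16 ± 0.17, SE, adjusted p = 0.00638). The histone deacetylase Hdac1 was at the threshold (0.72 ± 0.20, SE, adjusted p = 0.0498), and its other probe set gave 0.18 (adjusted p = 0.338). The Hdac1 call was lost without any 1 of IMCD replicates 1, 2 and 3 and nonIMCD replicates 1 and 2. It was also lost after quantile normalization (0.70, adjusted p = 0.0701), with a pseudocount of 1 (0.73, 0.0601) and with the mean of its probe sets (0.45, 0.0573). Of the other ligands 1 of 8 was higher, the matrix protein Mfap2 (1.72 ± 0.31, SE, adjusted p = 0.0138). Its nonIMCD readings of 31.5, 48 and 24.5 lay under the brightest TrpnX reading of all arrays. Those of nonIMCD replicates 2 and 3 were above the brightest TrpnX reading of their own array (13 and 19.9). Without IMCD replicate 1 or nonIMCD replicate 1 Mfap2 missed the threshold (1.65 and 1.69, adjusted p = 0.052 and 0.0517).

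Further Hes and Hey family genes and Nrarp, which Notch induces and which limits Notch activity, gave 1 higher and 1 lower of 7. Hey2, a repressor known from arterial endothelium and heart, read 338, 182 and 76.8 in IMCD and 1266, 1182 and 1063 in nonIMCD, apart on all arrays (-2.66 ± 0.48, SE, adjusted p = 0.0135). Without nonIMCD replicate 1 its adjusted p was 0.0508 at -2.61. Heyl, known from smooth muscle, had the opposite direction with 443, 587 and 430 in IMCD and 131, 195 and 105 in nonIMCD (1.68 ± 0.25, SE, adjusted p = 0.00712), and its dimmer probe set gave 0.41 (adjusted p = 0.564). Nrarp (-0.13), Hes6 (0.13) and Hes5 (-0.04) did not pass. The 3 Hey genes thus had differences of -0.66, -2.66 and 1.68, of which those of Hey2 and Heyl passed.

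**Figure D5:**
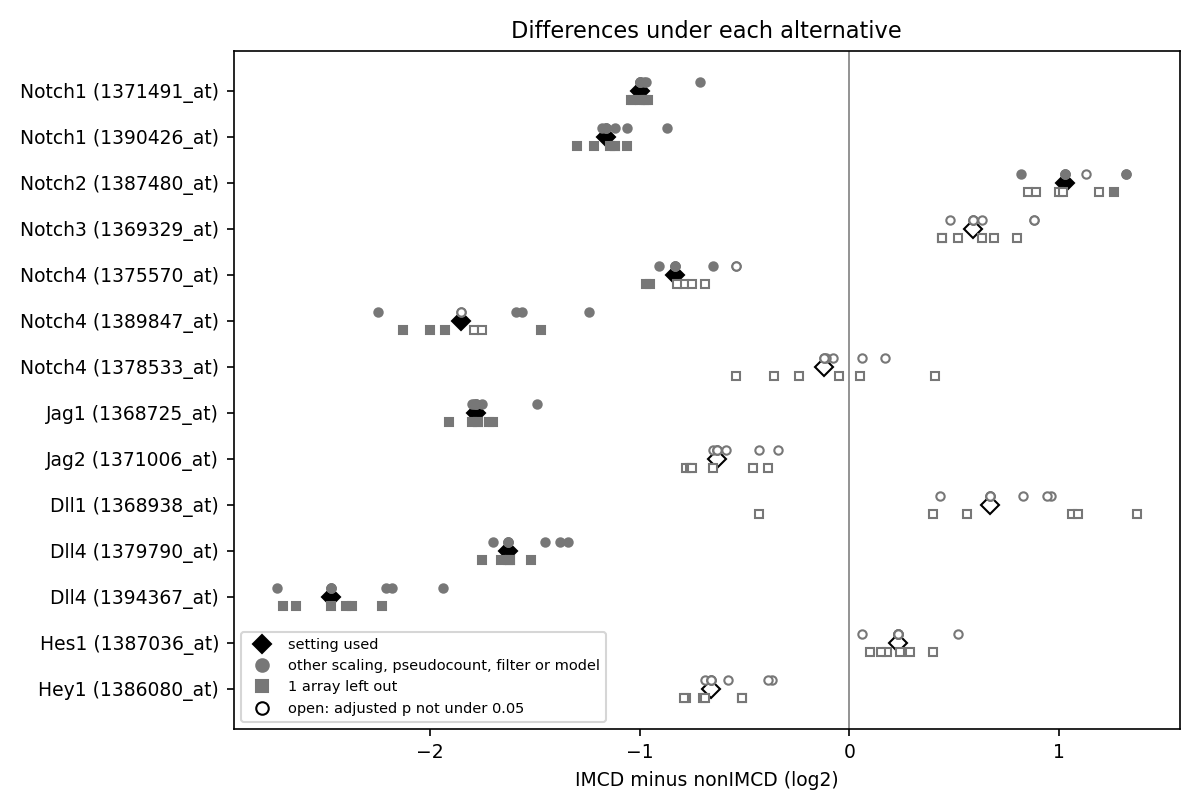
Difference IMCD minus nonIMCD (log2) of each of the 14 probe sets with the setting used (diamond), with another scaling, pseudocount, filter or model (circles) and with 1 array left out (squares), open where the adjusted p was not under 0.05. All points of Notch1, Jag1 and Dll4 are filled, those of Notch2 and of the first 2 Notch4 probe sets are mixed, and points of Dll1 and the third Notch4 probe set fall on both sides of 0.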

How the data were processed

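The authors deposited 1 linear intensity per probe set and array. The values show that each array was scaled to 1 trimmed mean (1000.3 to 1000.4 with 2% cut at each end). The sources used here do not name the software, and detection calls were not used here. Of 31099 probe sets the 57 controls were left out. The platform annotation of the probe sets, checked by gene ID against RefSeq (GRCr8), gave 1 symbol for 20826 probe sets. Signals were compared with 3 TrpnX control probe sets (1.55 to 78.4). The brightest reading, 78.4, came from nonIMCD replicate 1, and the brightest on each other array was between 13 and 45.8. A signal under 78.4 can thus lie above the TrpnX readings of its own array.

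Fractions were compared on log2(value + 16), a scale that understates differences of dim signals, with limma 3.58.1 (lmFit, eBayes) under R 4.3.3. The two-sided test took the 6 arrays together without covariates. Benjamini-Hochberg adjustment ran over 31042 probe sets, and the threshold was 0.05. Differences are IMCD minus nonIMCD, and a ratio in brightness is 2 to the power of the log2 difference. The p-values set a difference against the spread between arrays within the fractions, which may be technical. The number of arrays limits the precision. A gene outside the members was represented by its brightest probe set (mean log2 value over the 6 arrays). The fit was tested on simulated data. Alternatives were 2 other scalings, pseudocounts of 1 and 64, a filter on mean log2 values under 7, an intensity trend, a replicate block, the mean of a gene's probe sets, and each array left out. Named were all members, up to 4 passing genes per role with the largest difference or the largest 1, and 2 markers per list. Genes named beyond these were chosen after their values were seen. The members and lists were chosen with earlier results of these data known.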

Additional observations from a re-analysis of the deposited data

How the results depend on the processing

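The median difference of all probe sets moved up by 0.29 with median centring of the arrays and by 0.15 after quantile normalization. Higher probe sets made up 39.0% of all calls as deposited, 67.0% (5389 higher, 2652 lower) with median centring and 52.1% after quantile normalization. Of the Notch probe sets 2 were higher with median centring, and with a pseudocount of 1 limma called 0 higher, where 1 had an unadjusted p under 0.05. Of the other pathway genes 13 were higher with median centring, and the lower ones numbered 14 without dim probe sets, 16 with an intensity trend and 13 with the mean of a gene's probe sets. With 1 array left out, 1537 to 2248 of all probe sets were higher and 2647 to 3221 lower, and 0 to 1 of the Notch probe sets were higher and 5 to 7 lower. Without IMCD replicate 2 or 3 or any nonIMCD array limma called 0 Notch probe sets higher, with 1 or 2 at an unadjusted p under 0.05. In the same runs 2 to 5 other pathway genes were higher and 5 to 7 lower. Signs turned for 2 uncalled members: the third Notch4 probe set gave 0.17 with median centring, 0.06 after quantile normalization, and, with 1 array left out, -0.54 to 0.41 (0.05 without IMCD replicate 3, 0.41 without nonIMCD replicate 1), and Dll1 gave -0.43 to 1.37 with 1 array left out, the lowest without nonIMCD replicate 1. The cause of these changes was not tested. The filter left out 2 of the 14 Notch probe sets, and that of Mfap2, which then gave no value.

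The design names 3 pairs, and the labels do not say that equal replicate numbers mark them. Deviations from the fraction means correlated at 0.040, 0.035 and 0.061 between arrays of equal number over all probe sets and at 0.14, 0.22 and 0.27 over those with a mean log2 value of at least 8. Each array correlated best with its own number, a hint from the data and not from the design. The age labels of replicate 1 differ, with 6 weeks for IMCD and 10 weeks for nonIMCD. With the replicate block 1831 probe sets were higher and 2993 lower, 1 and 6 of the Notch probe sets, and 5 and 7 of the other pathway genes. Under the block the second Notch4 probe set gave -1.85 (adjusted p = 0.0603), Lnx1 0.75 (adjusted p = 0.0699), Mib2 -0.50 (adjusted p = 0.0758) and Hdac1 0.72 (adjusted p = 0.0604). Among the 14 Notch probe sets and the 14 other pathway genes that passed, no other call changed. Markers and dimmer probe sets of other genes were not run with the block.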

Other observations

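Probe sets of 1 gene did not always share a call. Of the 26 other pathway genes with at least 2 probe sets, 12 had a called one, and in 10 of these called and uncalled probe sets stood side by side. Probe sets called in opposite directions were found for 0 of the 26. For Crebbp, a histone acetyltransferase that coactivates with the Notch complex, the brightest probe set gave -0.35 (adjusted p = 0.131) and the third in brightness -1.78 (adjusted p = 0.000953). That dimmer one read 389, 444 and 450 in IMCD and 1378, 1458 and 1709 in nonIMCD, with no overlap. For the sheddase Adam10 the brightest gave 0.55 (adjusted p = 0.195) and the other 0.91 (adjusted p = 0.0319). These genes were chosen after their values were seen.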
